A study of Mus musculus with 12 samples.

Results

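Dysplastic tongue epithelium was compared with normal tongue epithelium, the samples being those whose titles name dysplasia or normal tongue: 3 of each, 6 of the 12 samples of the series. The 3 dysplasia samples came from male CBA mice that drank 4-nitroquinoline 1-oxide (4-NQO), a carcinogen that damages DNA, at 100 ug/mL for 8 weeks, and the 3 normal samples from male CBA mice that were not treated. The labelled ages were 16, 24 and 16 weeks for dysplasia 1, 2 and 3, and 24, 12 and 20 weeks for normal 1, 2 and 3; the methods give such numbers as weeks of the experiment, so they may not be ages. Epithelial cells were cut from frozen tongue sections by laser microdissection, and the amplified RNA of each mouse went onto its own Affymetrix Mouse Gene ST array. Dysplasia was assigned by a pathologist on stained sections. Each sample is thus 1 lesion of 1 mouse, and treatment and lesion stage cannot be told apart from the normal samples. The other 6 samples, 3 hyperplasias and 3 tumors from 4-NQO mice, entered the estimate of the spread and are quoted where they place a dysplasia value.

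The upper surface of the mouse tongue is covered by a stratified squamous epithelium whose basal cells divide and whose upper layers flatten and cornify. Between the cornified columns stand the filiform papillae, spines built from hair-type (hard) keratins and the cysteine-rich or glycine-rich keratin-associated proteins that cross-link them. Late differentiation genes of the epidermis lie together on chromosome 3 in the mouse, where small proline-rich (Sprr), late cornified envelope (Lce), fused S100 (filaggrin, hornerin, repetin, cornulin) and S100 genes are neighbours. Dysplasia is the stage at which this layered order is disturbed before invasion.

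Arrays carry no read depth; the values are log2 signals after the robust multi-array average (RMA), and a difference of 1 is a doubling. Medians over all genes ran from 6.19 to 6.35 in the 6 arrays and the 5th percentiles from 3.00 to 3.38, so values near 3 to 4 lie at the dim end of an array. Epithelial marker genes averaged 11.1 to 11.6 in all 6 arrays. Dysplasia 1 correlated least with the other arrays of its group (mean r over genes 0.934, against 0.946 and 0.951 for dysplasia 2 and 3). It also had the lowest RNA integrity number of its group, as normal 1 had of the normal samples, and it was prepared on another day than dysplasia 2 and 3, which shared 1 day. No preparation day held both normal and dysplasia samples, so day and lesion cannot be told apart; with the day as a random block, 53 genes were called higher and 102 lower.

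With limma across all 12 arrays, 64 of 24477 genes were higher in dysplasia than in normal epithelium (0.261%) and 123 were lower (0.503%) at a Benjamini-Hochberg adjusted p under 0.05. None of these 187 genes had overlapping groups, against 7.28% of all genes with every dysplasia array above every normal array and 8.7% with every one below. The median absolute log2 difference of the called genes was 1.92, and the smallest was 0.80. By the rule of the study, a difference of means over 1 with no test, 451 genes were higher (1.84%) and 583 lower (2.38%). The count of calls rested heavily on single arrays: 6 higher and 11 lower without normal 1, 11 and 20 without dysplasia 2, but 75 and 198 without dysplasia 1. With 1 normal or dysplasia array left out at a time, 14 of the 187 genes were called in all 6 fits and 32 in none.

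The genes called in all 6 of these fits were S100a8, S100a9, Cd3g and Lrrc8b among the rises and Crnn, Lor, Serpinb13, Fmo2, Far2, Gngt1, Fndc9, Slc10a4l, Tmem45a2 and Gm11567 among the falls. Among the rises are both calprotectin genes and a T cell receptor subunit. The falls include the envelope genes Crnn and Lor, the serpin Serpinb13, the oxidation gene Fmo2, and Gm11567 of the hard keratin stretch on chromosome 11. Lrrc8b, Far2, Gngt1, Fndc9, Slc10a4l and Tmem45a2 belong to none of these groups.

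**Figure D1:**
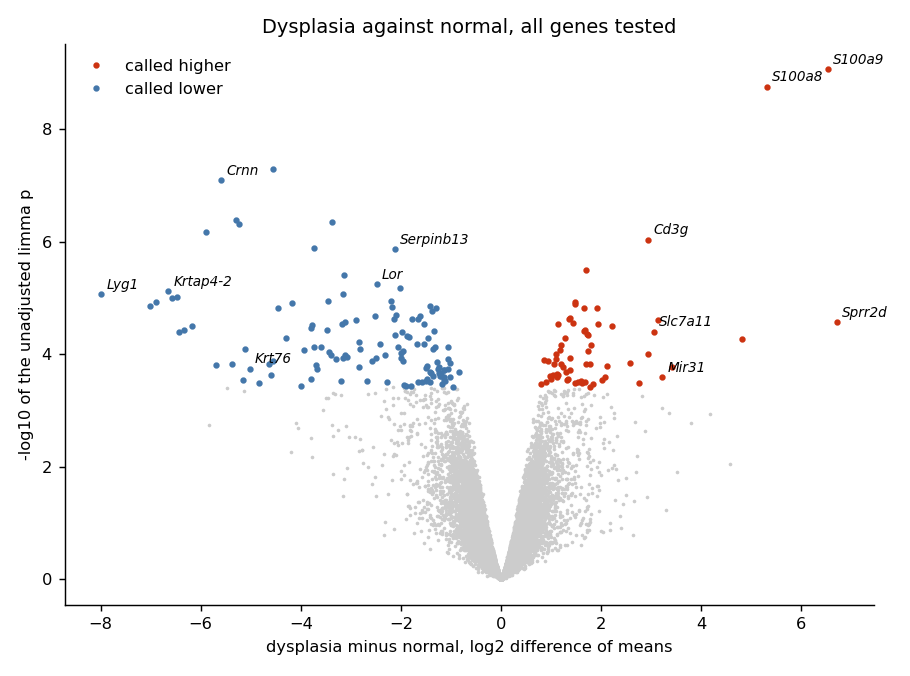
Log2 difference of means (dysplasia minus normal, x axis) against the -log10 of the unadjusted limma p (y axis) for each of 24477 genes. The 64 genes called higher are red, the 123 called lower are blue, and the calls reach farther on the left, to a difference of -7.98 for Lyg1, than on the right, to 6.71 for Sprr2d.

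Calprotectin was the clearest rise. S100a8 and S100a9 encode the paired calcium-binding subunits of calprotectin, abundant in neutrophils and in inflamed epithelium. S100a9 read 6.45, 6.30 and 6.41 in normal 1, 2 and 3 and 12.61, 12.98 and 13.16 in dysplasia 1, 2 and 3. S100a8 read 7.48, 8.42 and 7.31 in normal epithelium and 12.97, 12.93 and 13.25 in dysplasia. Both genes were far above normal in every dysplasia array, with differences of 6.53 (SE 0.39, limma adjusted p = 2.12e-05) for S100a9 and 5.31 (SE 0.34, adjusted p = 2.14e-05) for S100a8. The other 8 of the 10 measured S100 genes of squamous epithelium were not called, and the median of the list was -0.22. Of 15 neutrophil markers none was called and 8 had a difference above 0, with a median of 0.04 and a range from -1.45 to 0.57. The lowest was Ly6g, which marks mouse neutrophils. It read 6.35, 5.63 and 3.99 in normal and 4.24, 4.72 and 2.67 in dysplasia, in part at the dim end of the arrays. The part of neutrophils in the calprotectin values was not tested.

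The small proline-rich genes Sprr2d and Sprr2i were called higher too. The Sprr2 group encodes cross-bridging proteins of the cornified envelope that are induced in injured skin. Sprr2d went from 4.52, 4.05 and 4.73 in the normal samples to 10.41, 11.15 and 11.87 in dysplasia, a difference of 6.71 (SE 1.03, limma adjusted p = 0.0141). Sprr2i read 4.60, 7.68 and 4.82 in normal and 9.45, 10.08 and 12.01 in dysplasia (difference 4.81, SE 0.80, adjusted p = 0.0185). Of 10 measured Sprr2 genes, 9 had a difference above 0, and Sprr2d and Sprr2i were called. Of the 10, 8 lay wholly above normal, against 7.28% of all genes. These copies are similar in sequence, and how far cross-hybridization shares signal between them was not tested.

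Other large rises belonged to secreted and membrane proteins. Wfdc18, a whey acidic protein family gene, read 6.92, 6.66 and 6.39 in normal and 8.27, 11.13 and 10.83 in dysplasia (difference 3.42, SE 0.64, limma adjusted p = 0.0324). Dysplasia 1 was the lowest of its group there, although still above all normal samples. Tmprss11b, a membrane-anchored serine protease of squamous epithelium, rose by 3.14 (SE 0.48, adjusted p = 0.0139). It was the only called member of 27 proteases and inhibitors of desquamation. Slc7a11, the cystine importer that feeds glutathione synthesis, read 7.95, 8.54 and 7.85 in normal and 10.15, 11.68 and 11.66 in dysplasia (difference 3.05, SE 0.49, adjusted p = 0.0156). Lrrc8b, a subunit of volume-regulated anion channels, rose by 1.70 (SE 0.21, adjusted p = 0.00648). Slc2a1, the glucose transporter GLUT1, rose by 1.44 (SE 0.22, adjusted p = 0.0141) and was the only called gene of 29 of hypoxia and glycolysis.

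**Figure D2:**
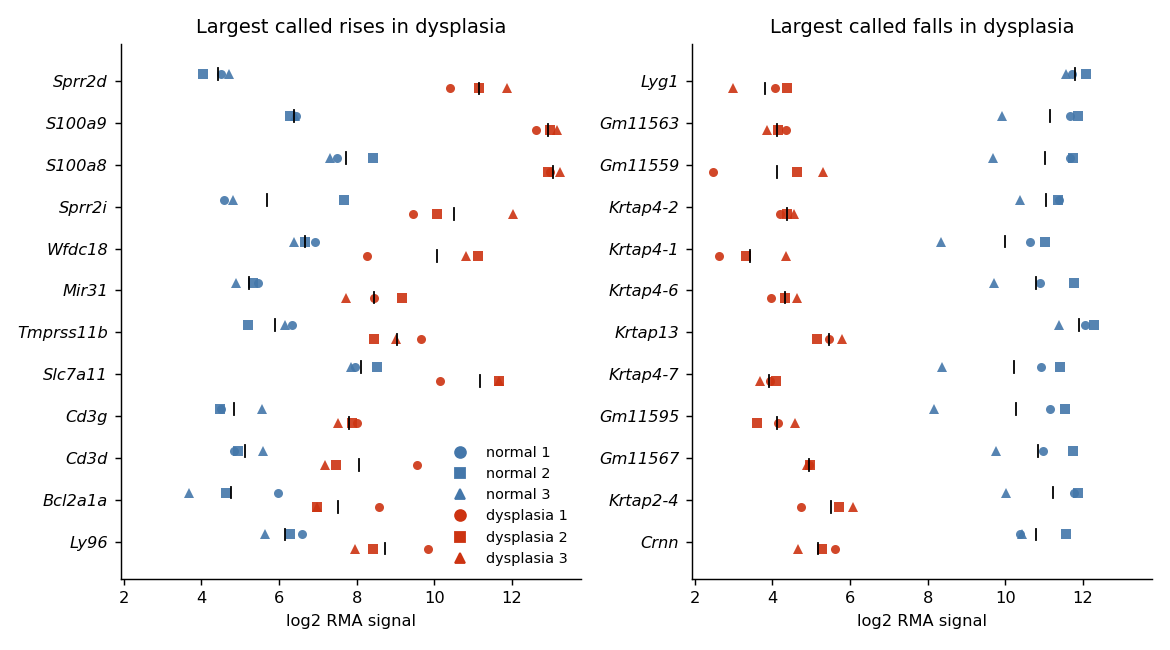
Log2 RMA signal of the 12 named genes with the largest called rises (left) and the 12 with the largest called falls (right), 1 point per array (normal blue, dysplasia red; circle, square and triangle for replicates 1, 2 and 3), with group means as black ticks. No gene shows overlap between the groups, and Krtap4-2 lies between 4.20 and 4.55 in dysplasia against 10.36 to 11.39 in normal.

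The microRNA gene Mir31 was among the 12 largest rises, and its mature products are shown because the arrays report the precursor locus rather than either arm. Both come from the minus strand of chromosome 4 (RefSeq, GRCm38.p6), at chr4:88910614-88910635 for the 5p arm and chr4:88910577-88910599 for the 3p arm, with the seed (bases 2 to 8) in capitals.
mmu-miR-31-5p: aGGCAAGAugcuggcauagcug
mmu-miR-31-3p: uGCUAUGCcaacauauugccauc
Mir31 is induced in squamous cancers and in wounded skin. It read 5.45, 5.34 and 4.89 in normal 1, 2 and 3 and 8.44, 9.18 and 7.72 in dysplasia 1, 2 and 3. All dysplasia arrays lay above all normal arrays (difference 3.22, SE 0.63, limma adjusted p = 0.0408), but the call was lost in each of the 6 fits that left an array out. It was the only called gene of 19 microRNA genes of epithelium, whose median difference was -0.16.

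The largest block of falls was the keratin machinery of the papillae. Of 32 measured genes for hard keratins and their associated proteins, 14 were called lower and none higher, against 0.503% of all genes called lower. Of the 32, 27 lay wholly below the normal arrays, against 8.7% of all genes, and the median difference was -3.26. The list mean was 9.39, 10.1 and 8.30 in normal 1, 2 and 3 and 6.02, 5.82 and 6.04 in dysplasia. Normal 3 was thus the lowest normal sample, and the 3 dysplasia arrays were nearly equal.

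Krtap4-2 and its neighbours encode cysteine-rich proteins that cross-link hard keratin filaments. Krtap4-2 read 11.39, 11.34 and 10.36 in normal and 4.20, 4.39 and 4.55 in dysplasia (difference -6.66, SE 0.90, limma adjusted p = 0.0113). Krtap13, on chromosome 16, read 12.04, 12.28 and 11.37 against 5.46, 5.15 and 5.79 (difference -6.43, SE 1.03, adjusted p = 0.0156). In dysplasia Krtap4-2 was thus near the dim end of the arrays, and Krtap13 lay below the array medians. Of the hard keratins themselves, Krt34 fell by 3.74 (SE 0.64, adjusted p = 0.0220), Krt35 fell by 1.88 (SE 0.31, adjusted p = 0.0173), and the related Krt87 fell by 3.67 (SE 0.70, adjusted p = 0.0343). Krt84 read 11.91, 12.06 and 11.44 in normal and 10.57, 8.28 and 9.45 in dysplasia, without a call (adjusted p = 0.218), and Krt36 likewise kept its highest dysplasia value in dysplasia 1 (9.64, against 6.93 and 8.05).

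Most of these genes are neighbours. In the RefSeq order of chromosome 11, 49 genes run from Krtap3-3 to Krt35, and 38 of them were measured. Of these, 20 were called lower and none higher, against 0.503% of all genes called lower. Wholly below normal lay 31, against 8.7% of all genes. Their differences ran from -7.02 to 0.28 with a median of -3.61. They include genes known only by clone-type symbols: Gm11563 read 11.65, 11.86 and 9.92 in normal and 4.36, 4.15 and 3.86 in dysplasia, and Gm11567 read 10.97, 11.74 and 9.77 against 4.94, 4.96 and 4.90 (difference -5.89, SE 0.63, limma adjusted p = 0.00208). A few genes of the stretch differed little, such as Krtap17-1 at -0.14, Krtap16-1 at -0.24 and Krt32 at -0.32, none of them called. Copies of the Krtap4 group are close in sequence, so the fall of a single copy is uncertain.

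Among 18 regulators of papilla and hair-type differentiation, Msx2, Dlx3 and Lef1 were called lower and none higher, against 0.503% of all genes called lower. Msx2 and Dlx3 are homeobox factors of hair and papilla, and Lef1 is a transcription factor that relays Wnt signals in hair matrix cells. Msx2 read 6.83, 7.12 and 7.42 in normal and 4.79, 5.21 and 5.48 in dysplasia (difference -1.96, SE 0.36, limma adjusted p = 0.0297). Dlx3 fell by 1.54 (SE 0.26, adjusted p = 0.0212) and Lef1 fell by 1.41 (SE 0.28, adjusted p = 0.0446). Hoxc13, which drives hair keratin genes, read 7.71, 7.67 and 7.67 against 7.32, 6.72 and 6.50, below normal in every array but not called (adjusted p = 0.255). Fzd7, a Wnt receptor, was the only called gene of 39 in the Wnt list and fell by 1.06 (SE 0.19, adjusted p = 0.0284).

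Lyg1, a g-type lysozyme gene, had the largest fall of all: 11.72, 12.09 and 11.55 in normal against 4.07, 4.36 and 2.98 in dysplasia (difference -7.98, SE 1.09, limma adjusted p = 0.0113). The other 24 of 25 antimicrobial genes were not called. Fmo2, a flavin monooxygenase, read 10.88, 11.17 and 10.77 in normal and 5.98, 4.75 and 6.21 in dysplasia (difference -5.30, SE 0.54, adjusted p = 0.00172). Cyp2f2, a cytochrome P450 that oxidizes small aromatic compounds, fell by 3.12 (SE 0.48, adjusted p = 0.0141). These were the called members among 44 genes of drug and carcinogen metabolism, whose median difference was 0.03.

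Calls among cornification genes went in both directions. Of 49 measured cornified envelope genes, 2 were called higher (Sprr2d and Sprr2i) and 7 lower, against 0.261% and 0.503% of all genes. Of the 49, 25 were lower by more than 1, against 2.38% of all genes. Crnn (cornulin), a fused S100 protein of upper squamous layers, read 10.38, 11.55 and 10.42 in normal and 5.62, 5.28 and 4.65 in dysplasia (difference -5.60, SE 0.50, limma adjusted p = 0.000491). Flg (filaggrin), which bundles keratin in cornifying cells, read 10.01, 9.88 and 10.24 against 6.09, 5.58 and 5.12 (difference -4.45, SE 0.64, adjusted p = 0.0113). Lor (loricrin), a main envelope protein, fell by 2.49 (SE 0.33, adjusted p = 0.00983). These losses were present in all 3 dysplasia arrays.

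Many other envelope genes were lower in dysplasia 2 and 3 than in dysplasia 1. The median difference from normal over the 49 genes was 0.09 in dysplasia 1 and -1.74 in dysplasia 2 and 3. Of the 49, 23 were called lower when dysplasia 1 was left out, against 0.809% of all genes. The clearest family was Lce, the late cornified envelope proteins. All but 1 of 21 measured Lce genes were higher in dysplasia 1 than in dysplasia 2 and 3, with median differences from normal of -0.83 and -3.11. Of the 21, 3 were called lower with all arrays and 18 without dysplasia 1, against 0.503% and 0.809% of all genes. Lce1c read 12.30, 13.02 and 11.88 in normal and 10.57, 7.78 and 8.65 in dysplasia, and Lce3c read 11.99, 12.60 and 11.95 against 12.27, 9.92 and 10.39. The Lce1 copies are alike in sequence, so they are not separate evidence.

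Examples of genes left near normal in dysplasia 1 were picked with their values in view. Dnase1l2, the nuclease that degrades nuclear DNA in cornifying cells, read 10.06, 10.47 and 9.87 in normal and 9.68, 5.61 and 6.02 in dysplasia. Asprv1, the protease that processes filaggrin, read 11.71, 12.08 and 11.52 against 11.65, 8.69 and 8.52. Cdsn (corneodesmosin), the adhesive protein of cornified cell junctions, read 10.48, 10.75 and 10.20 against 10.12, 8.13 and 8.15. Il18, an interleukin 1 family cytokine stored in keratinocytes, read 9.91, 10.50 and 9.65 against 10.22, 5.76 and 6.51. None of these genes was called with all 3 arrays (limma adjusted p = 0.130, 0.188, 0.125 and 0.266, in that order), and all were called lower without dysplasia 1 (adjusted p = 0.000848, 0.00236, 0.00255 and 0.00473), a fit in which 0.306% of genes were called higher and 0.809% lower. A further count took genes whose mean in dysplasia 2 and 3 differed from normal by over 1, with both arrays outside the normal range. With dysplasia 1 within 0.5 of the normal mean, they numbered 152 higher and 198 lower. Gpnmb, a membrane glycoprotein of macrophages and pigment cells, missed that limit narrowly, at 6.41, 6.05 and 6.01 in normal and 6.75, 11.81 and 10.44 in dysplasia. The same count gave 83 and 66 with dysplasia 2 as the array left at normal, and 112 and 101 with dysplasia 3.

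On chromosome 3 the differentiation complex held both directions side by side. RefSeq lists 84 genes from Tchhl1 to S100a9, of which 56 were measured, 3 called higher (S100a9, Sprr2d, Sprr2i) and 6 lower (Crnn, Flg, Lor, Lce1c, Lce1d, Lce1a2). Over all genes, 0.261% were called higher and 0.503% lower. Without dysplasia 1 the counts were 3 and 24, against 0.306% and 0.809% of all genes. The stretch includes the Lce1 copies that are alike in sequence.

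Keratins of the living layers followed the same split. Krt76 and Krt78, suprabasal keratins of oral epithelium, were the called members of 11 suprabasal keratins, against 0.503% of all genes called lower. Krt76 read 12.07, 12.16 and 11.88 in normal and 8.44, 6.50 and 6.08 in dysplasia (difference -5.02, SE 0.95, limma adjusted p = 0.0342). Krt78 fell by 2.83 (SE 0.47, adjusted p = 0.0200). Krt4, the main suprabasal mucosal keratin, read 13.16, 13.11 and 13.30 in normal and 12.94, 10.67 and 12.23 in dysplasia, without a call (adjusted p = 0.429). Its partner Krt13 stayed between 12.39 and 13.28 in all 6 arrays. The median of the suprabasal list was -0.25 in dysplasia 1 and -1.74 in dysplasia 2 and 3.

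Of 10 stress and simple-epithelial keratins, 2 were called higher, against 0.261% of all genes. Of the 10, 4 had a difference above 0, and the median was -0.09. Krt6b, induced in wounded epithelium, read 11.53, 11.62 and 11.35 in normal and 12.90, 12.41 and 12.53 in dysplasia (difference 1.11, SE 0.22, limma adjusted p = 0.0410). Krt17 rose by 0.97 (SE 0.19, adjusted p = 0.0399), and Krt16 differed by 0.71 without a call (adjusted p = 0.0979). Of the basal list none of 18 was called: Krt5 read 12.16, 11.81 and 12.32 against 11.46, 12.14 and 12.26, and Krt14 read 12.29, 12.05 and 12.25 against 12.51, 12.39 and 12.58. Krt15, a keratin of resting basal cells, was again split, at 12.05 in dysplasia 1 and 8.80 and 10.02 in dysplasia 2 and 3, against 11.82, 11.85 and 12.06 in normal.

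Among the clade B serpins, protease inhibitors of squamous cells, 3 of 17 were called lower, against 0.503% of all genes. Serpinb13 read 6.08, 6.17 and 6.28 in normal and 4.37, 3.57 and 4.23 in dysplasia (difference -2.12, SE 0.24, limma adjusted p = 0.00305). Serpinb7 fell by 3.81 (SE 0.60, adjusted p = 0.0152) and Serpinb3c fell by 4.59 (SE 0.89, adjusted p = 0.0398). Dsg4, a desmosomal cadherin of hair and papilla, was the only called gene of 29 junction genes and fell by 2.27 (SE 0.46, adjusted p = 0.0446). None of 27 barrier lipid genes was called with all arrays. Aloxe3, a lipoxygenase of the skin barrier, read 10.10, 9.83 and 10.19 in normal and 9.77, 8.18 and 7.94 in dysplasia.

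**Figure D3:**
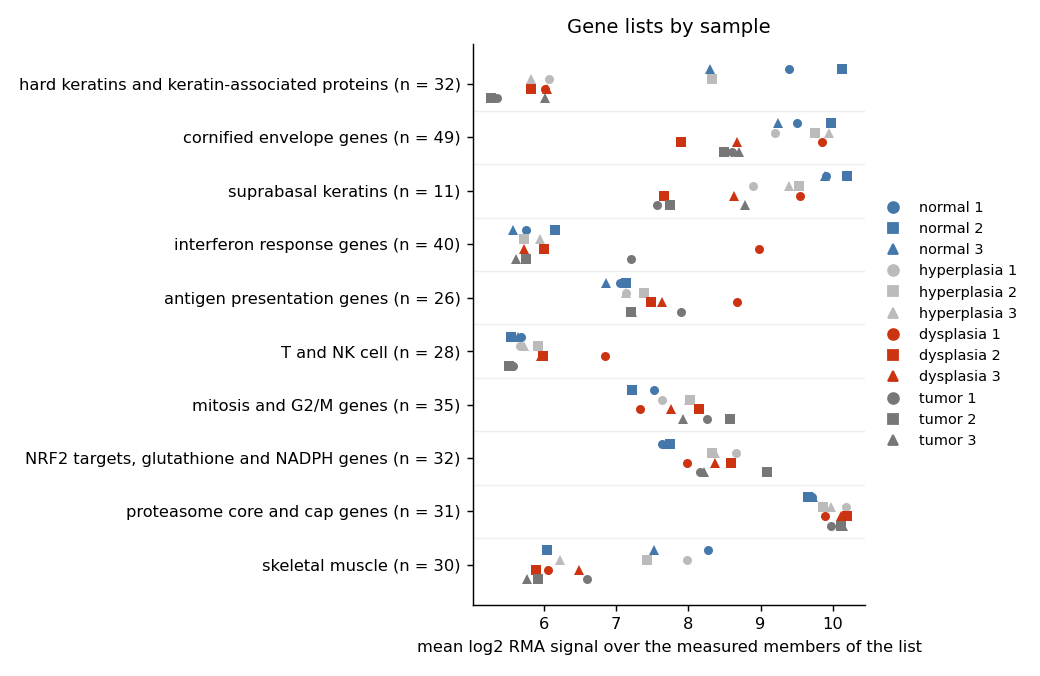
Mean log2 RMA signal over the measured members of 10 gene lists (x axis), 1 point per array for normal (blue), hyperplasia (light gray), dysplasia (red) and tumor (dark gray). Hard keratin genes average 5.82 to 6.04 in dysplasia against 8.30 to 10.1 in normal, and dysplasia 1 stands alone at 8.98 for interferon response genes.

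Some genes of T cells were called higher in dysplasia although the cells had been cut from epithelium. Cd3g and Cd3d encode subunits of the T cell receptor complex. Cd3g read 4.52, 4.48 and 5.56 in normal and 8.00, 7.88 and 7.51 in dysplasia (difference 2.95, SE 0.33, limma adjusted p = 0.00249). Cd3d read 4.85, 4.94 and 5.58 against 9.55, 7.47 and 7.17 (difference 2.94, SE 0.52, adjusted p = 0.0259). Cd96, a T and NK cell receptor, rose by 1.73 (SE 0.28, adjusted p = 0.0168), and the receptor gene segments Traj17 and Trbv13-2 rose by 1.48 (SE 0.21, adjusted p = 0.0113) and 1.79 (SE 0.37, adjusted p = 0.0498). Cd4 read 6.55, 5.33 and 5.97 in dysplasia against 6.23, 5.96 and 5.59 in normal, and Cd8a read 6.70, 5.46 and 5.22 against 5.53, 5.29 and 5.70; neither was called. Of 28 measured T and NK cell markers, 2 were called higher, against 0.261% of all genes, and 7 lay wholly above normal, against 7.28%. The other called genes named here were not on that list and were picked from the calls. The list mean was 5.54 to 5.69 in normal and 6.84, 5.99 and 5.96 in dysplasia 1, 2 and 3. More T cells and more RNA per T cell cannot be told apart in such samples.

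Tumors were lower than dysplasia in Cd3g. Cd3g averaged 5.96 in hyperplasia, 7.80 in dysplasia and 5.04 in tumor, and it was the only gene called between tumor and dysplasia (difference -2.76, limma adjusted p = 0.0456; 0.00409% of genes lower and 0% higher). At an unadjusted p under 0.05, 1553 genes differed there. Trdv4, a variable segment of the gamma-delta T cell receptor, showed a similar course in dysplasia 2 and 3 only. It read 5.32, 4.79 and 4.61 in normal and 5.51, 8.02 and 7.98 in dysplasia, and was called against normal without dysplasia 1 (difference 3.09, adjusted p = 0.000848).

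Markers of other immune cells also held single calls. The median difference was 0.55 over 15 macrophage markers and 0.58 over 17 dendritic and Langerhans cell markers, beside 0.43 for T and NK cells. Wholly above normal lay 6 of the macrophage and 7 of the dendritic and Langerhans cell markers, against 7.28% of all genes. The lists were not compared by a test. C1qc, a complement subunit made by macrophages, read 4.30, 4.23 and 5.38 in normal and 6.44, 6.07 and 6.55 in dysplasia (difference 1.72, SE 0.28, limma adjusted p = 0.0168) and was the only called gene of 15 macrophage markers. Fscn1, an actin-bundling protein of mature dendritic cells that carcinoma cells also use, rose by 1.71 (SE 0.32, adjusted p = 0.0312), and Tpsab1, a mast cell tryptase, rose by 1.81 (SE 0.31, adjusted p = 0.0214). Tpsab1 was the only called gene of 11 mast cell markers, of which 6 had a difference above 0 at a median of 0.05. Outside the macrophage and dendritic cell lists, Tyrobp, a signalling adaptor of myeloid and NK cells, rose by 2.12 (SE 0.40, adjusted p = 0.0324). Lcp1, the leukocyte plastin, likewise outside them, rose by 1.68 (SE 0.27, adjusted p = 0.0156). B cell markers were near normal, with none of 10 called.

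Some single genes of innate signalling were called higher, of which Ly96, Myd88 and Nod2 belonged to no list and were picked from the calls. Ly96, the co-receptor of Toll-like receptor signalling to endotoxin, read 6.60, 6.28 and 5.63 in normal and 9.83, 8.43 and 7.96 in dysplasia (difference 2.57, SE 0.47, limma adjusted p = 0.0312). The adaptor Myd88 rose by 1.39 (SE 0.25, adjusted p = 0.0280) and the peptidoglycan sensor Nod2 by 1.15 (SE 0.18, adjusted p = 0.0141). Il1f9 (interleukin 36 gamma), a keratinocyte cytokine, rose by 1.68 (SE 0.34, adjusted p = 0.0446) and Bcl3, a nuclear partner of NF-kB, by 1.37 (SE 0.26, adjusted p = 0.0350); these were the called members of 25 genes of the interleukin 1 family and NF-kB, of which 14 had a difference above 0 at a median of 0.27. Cxcl16, a membrane-bound chemokine, read 5.91, 6.73 and 6.57 in normal and 8.44, 7.74 and 8.00 in dysplasia (difference 1.66, SE 0.24, adjusted p = 0.0113) and was the only one called of 33 chemokines and receptors. The anti-apoptotic genes Bcl2a1a and Bcl2a1b rose by 2.75 (SE 0.56, adjusted p = 0.0450) and 1.92 (SE 0.28, adjusted p = 0.0113); they are near-identical copies, and leukocytes express them.

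Interferon response genes were high in dysplasia 1 and not in dysplasia 2 or 3. For dysplasia 1 the animal, the preparation day and the RNA integrity cannot be told apart. Interferon-stimulated genes encode antiviral proteins and are switched on through the factors STAT and IRF. The list of 40 had a mean of 5.76, 6.15 and 5.57 in normal 1, 2 and 3, and of 8.98 in dysplasia 1, while dysplasia 2 and 3 lay within the range of the normal arrays. Its median difference from normal was 3.15 in dysplasia 1 and -0.08 in dysplasia 2 and 3. Among the other lesions tumor 1 had the highest mean, 7.21, and the remaining hyperplasia and tumor arrays lay between 5.61 and 5.94.

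Genes driven by dysplasia 1 only were defined as those over 1 in the difference of means, with dysplasia 1 outside the normal range and the mean of dysplasia 2 and 3 within 0.5 of the normal mean. There were 50 higher and 7 lower, or 11.1% and 1.2% of the genes over the limit of 1 in that direction. The same rule turned to dysplasia 2 gave 4 and 8, and to dysplasia 3 gave 4 and 5. None of the 57 was called, and 5 had an unadjusted limma p under 0.05. Just inside the limit lay Irf7 and Cybb, with dysplasia 2 and 3 at -0.48 and 0.49 from normal, and just outside it Dapk2 and Nmi at 0.50 and 0.52.

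Of the 50, 17 belonged to the interferon or antigen presentation lists. Isg15, a ubiquitin-like modifier, read 5.07, 6.74 and 4.60 in normal and 9.79, 5.46 and 5.11 in dysplasia. Ifit1, which binds foreign RNA, read 5.06, 6.79 and 5.38 against 9.26, 5.25 and 5.87. Irf7, the factor that amplifies type I interferon, read 5.92, 6.44 and 4.88 against 10.08, 5.46 and 5.08. The 10 with the largest gap between dysplasia 1 and the mean of dysplasia 2 and 3 were Plac8, Gbp2 and Gbp8 (guanylate-binding proteins), Igtp (an immunity-related GTPase), Irf7, Ddx60, Rtp4, Apol9b, Trim30a and Slfn4. Gbp2 read 5.82, 4.94 and 5.67 in normal and 10.40, 5.82 and 5.22 in dysplasia. Plac8 read 11.18 in dysplasia 1 and 5.44 and 3.85 in dysplasia 2 and 3, against 4.20 to 5.15 in normal. Beside them stood leukocyte genes, Cd8b1 and Klrd1 of T and NK cells and Ighm of B cells, which read 9.16 in dysplasia 1 and at most 6.61 in the other 5 arrays. The part of leukocytes in the interferon values was not tested.

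Promoters of 3 of these genes are shown because many of the genes that moved together share an interferon-type element. The windows run from 250 bases before to 50 after the RefSeq start (GRCm38.p6), 5′ to 3′ on the strand of the gene, with each match to GAAA, any 2 bases and GAAA again, on either strand, in capitals. They are chr19:34640639-34640938 (plus strand) for Ifit1, chr4:156200769-156201068 (minus strand) for Isg15 and chr3:142620413-142620712 (plus strand) for Gbp2.
Ifit1: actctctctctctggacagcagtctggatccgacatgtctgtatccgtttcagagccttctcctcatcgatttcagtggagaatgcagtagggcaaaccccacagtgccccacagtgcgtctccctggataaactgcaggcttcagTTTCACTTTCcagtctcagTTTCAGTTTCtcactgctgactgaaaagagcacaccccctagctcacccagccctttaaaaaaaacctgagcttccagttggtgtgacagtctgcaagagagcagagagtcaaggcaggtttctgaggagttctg
Isg15: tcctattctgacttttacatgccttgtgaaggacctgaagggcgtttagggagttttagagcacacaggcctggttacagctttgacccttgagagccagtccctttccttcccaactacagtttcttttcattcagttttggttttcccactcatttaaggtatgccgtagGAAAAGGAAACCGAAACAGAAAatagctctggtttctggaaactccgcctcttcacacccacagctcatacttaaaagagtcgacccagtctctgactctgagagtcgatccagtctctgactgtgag
Gbp2: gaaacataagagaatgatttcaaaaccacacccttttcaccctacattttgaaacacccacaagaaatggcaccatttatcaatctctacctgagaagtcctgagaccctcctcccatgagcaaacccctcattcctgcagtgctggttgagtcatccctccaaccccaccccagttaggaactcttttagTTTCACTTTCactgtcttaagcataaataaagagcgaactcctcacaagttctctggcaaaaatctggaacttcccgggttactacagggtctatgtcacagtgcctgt
Of the 50 genes, 35 had a promoter entry, and 19 of these (54.3%) held the motif, as did 3.99% of 27025 genes with an entry. The 19 include Isg15, Ifit1, Gbp2, Igtp, Irgm1, Rsad2, Bst2, Ifih1, Ddx60 and Apol9b. Among the 45 genes called higher that had an entry, 2 held it (4.44%). The palindrome TTCNNNGAA, of the kind bound by STAT dimers, occurred in 5 of the 35 (14.3%), in 10 of the 45 genes called higher (22.2%) and in 9.55% of all. A match is a description of the letters only.

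**Figure D4:**
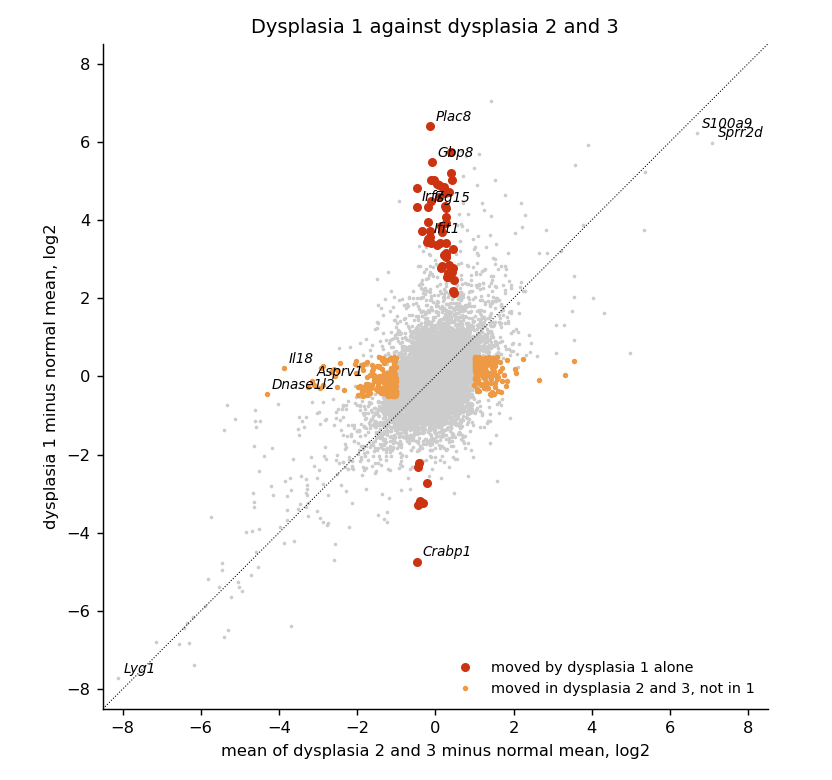
Difference of dysplasia 1 from the normal mean (y axis, log2) against the difference of the mean of dysplasia 2 and 3 (x axis, log2) for all genes. The 57 genes moved by dysplasia 1 alone (red) stand in a vertical band at 0, and the 152 and 198 genes moved in dysplasia 2 and 3 but not in dysplasia 1 (orange) in a horizontal one; Lyg1, S100a9 and Sprr2d lie near the dotted line of equal difference.

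Some genes of the interferon and antigen presentation lists were higher in all 3 lesions. B2m, the light chain of class I molecules, read 9.87, 11.20 and 10.34 in normal and 12.90, 12.25 and 12.46 in dysplasia (difference 2.07, SE 0.41, limma adjusted p = 0.0408). Samhd1, which degrades deoxynucleotides, read 8.26, 8.57 and 8.40 against 11.40, 9.66 and 10.22 (difference 2.02, SE 0.40, adjusted p = 0.0440). Without dysplasia 1 the differences were 1.89 for B2m (adjusted p = 0.0818) and 1.53 for Samhd1 (adjusted p = 0.0591), and no gene of either list was called. Of 26 antigen presentation genes, 11 lay wholly above normal, against 7.28% of all genes. Their median difference was 1.56 in dysplasia 1 and 0.55 in dysplasia 2 and 3. Of the 40 interferon response genes only 3 lay wholly above normal, near the share of all genes.

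The 7 genes driven lower by dysplasia 1 included Crabp1, a retinoic acid binding protein, which read 9.90, 10.57 and 11.45 in normal and 5.90, 9.86 and 10.48 in dysplasia. Apoe, a lipid carrier, read 7.11 in dysplasia 1 against 8.33 and 9.50 in dysplasia 2 and 3. Mir186, Mir669g and Tceal1 were the others with a symbol, all below 3 in dysplasia 1.

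No gene of the proliferation lists was called with all arrays. Of 35 mitosis and G2/M genes, 30 had a difference above 0 and 10 lay wholly above normal, the latter against 7.28% of all genes. Their median was 0.44, with 0.02 in dysplasia 1 and 0.64 in dysplasia 2 and 3. Bub1, a spindle checkpoint kinase, read 6.17, 5.95 and 5.77 in normal and 6.47, 7.38 and 7.77 in dysplasia (limma adjusted p = 0.146). Without dysplasia 1 it was called higher (difference 1.61, limma adjusted p = 0.0395). Mki67, the proliferation antigen Ki-67, read 8.73, 7.89 and 8.24 against 8.35, 8.70 and 8.77. Pbk, a mitotic kinase outside the list, was called and rose by 1.77 (SE 0.33, adjusted p = 0.0312). The 35 replication genes had a median of 0.15, with -0.36 in dysplasia 1 and 0.35 in dysplasia 2 and 3, and none lay wholly above normal. The 24 G1/S genes had a median of -0.12, with 10 above 0, and 1 of them was called higher without dysplasia 1. None of 28 p53 target genes was called, and in DNA repair only Apex2, an abasic site endonuclease, at 1.24 (SE 0.23, adjusted p = 0.0324) of 36 genes.

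Of 32 oxidative stress genes under the factor NRF2, 12 lay wholly above normal, against 7.28% of all genes, and Slc7a11 was called. Their median was 0.27 in dysplasia 1 and 0.65 in dysplasia 2 and 3. Without dysplasia 1, 4 of them were called higher, against 0.306% of all genes. Akr1b8, an aldo-keto reductase, read 6.43, 4.60 and 6.95 in normal and 8.00, 10.46 and 9.58 in dysplasia (limma adjusted p = 0.0825). Gclm, the modifier subunit of glutathione synthesis, read 9.58, 9.38 and 10.07 against 10.25, 11.49 and 11.17, and was called without dysplasia 1 (adjusted p = 0.0194). Gclc, its catalytic partner, read 8.52, 8.43 and 8.22 against 8.91, 11.38 and 10.61. Of 31 proteasome subunits none was called, and 30 had a difference above 0, at a median of 0.34. Of the 31, 16 lay wholly above normal, against 7.28% of all genes.

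Among growth factor and AP-1 genes no call was made. Fosl1, an AP-1 subunit, came closest, at 7.19, 5.63 and 5.85 in normal and 7.91, 8.11 and 8.22 in dysplasia (difference 1.85, SE 0.40, limma adjusted p = 0.0545). Hbegf, a ligand of the EGF receptor, read 7.43, 7.95 and 6.94 against 10.27, 8.54 and 7.99. Plau, the urokinase gene, read 8.53, 7.54 and 7.67 against 10.10, 9.45 and 9.29 (adjusted p = 0.0975). Epithelial-mesenchymal transition genes were uncalled, 0 of 25, with a median of -0.02. Notch genes were uncalled too, 0 of 20 with a median of -0.25.

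Markers of tissue below the epithelium differed in part. Dcn (decorin), a matrix proteoglycan of fibroblasts, read 11.65, 11.05 and 11.64 in normal and 6.76, 8.34 and 9.37 in dysplasia (difference -3.29, SE 0.59, limma adjusted p = 0.0284), the only call of 18 fibroblast markers. The hemoglobin genes Hbb-b1 and Hbb-bs fell by 3.81 (SE 0.76, adjusted p = 0.0433) and by 3.20 (SE 0.64, adjusted p = 0.0445). These were the called members of 4 measured red blood cell markers, of which 2 had a difference above 0, at most 0.17. Hbb-b1 was called in 0 and Hbb-bs in 1 of the 6 fits that left an array out. None of 30 skeletal muscle genes was called, but their mean was 8.27, 6.03 and 7.53 in normal against 6.05, 5.89 and 6.48 in dysplasia, and Acta1 reached 12.02 in normal 1. All 16 endothelial markers had a difference of means above 0, with a median of 0.60 and no call. The median was 0.07 in dysplasia 1 and 0.82 in dysplasia 2 and 3, and 2 of the 16 lay wholly above normal, against 7.28% of all genes. The part of residual muscle, stroma or blood in the other differences was not tested.

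**Figure D5:**
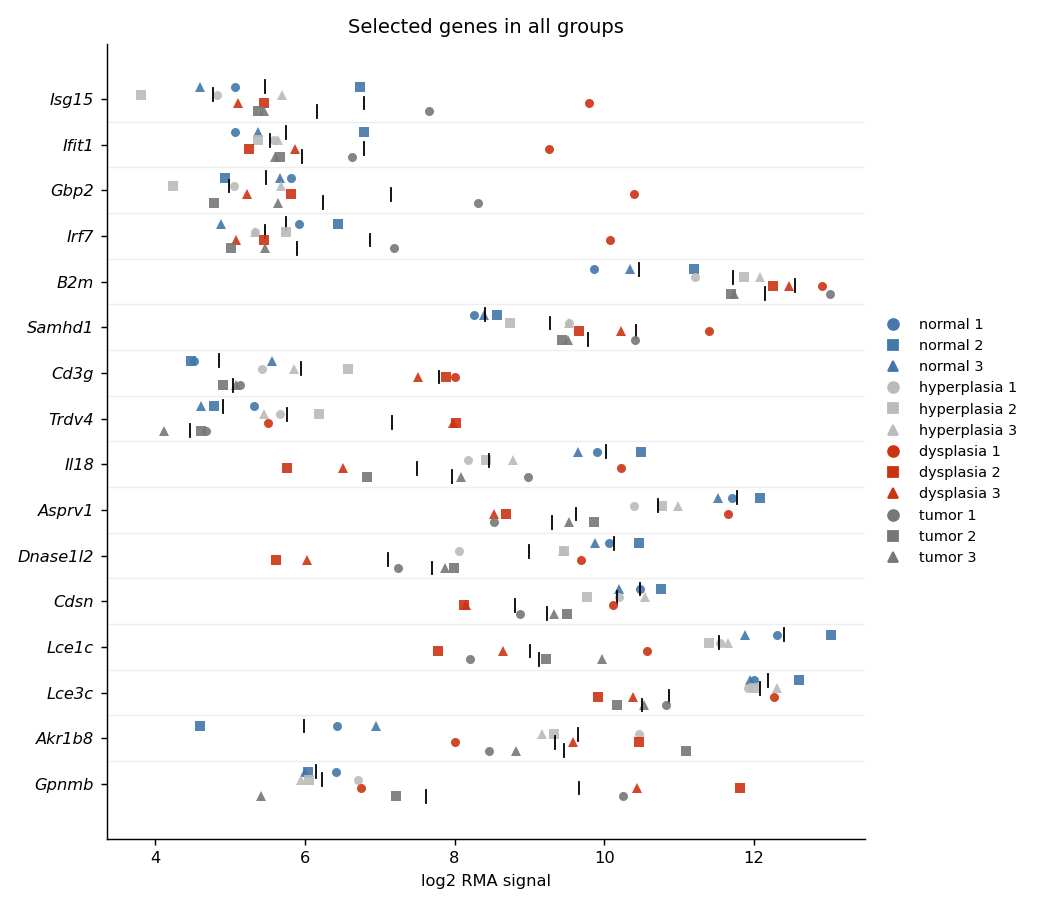
Log2 RMA signal (x axis) of 16 genes in all 12 arrays, colored by group with replicates as circle, square and triangle and group means as black ticks. Among the normal and dysplasia arrays, Isg15, Ifit1, Gbp2 and Irf7 are high in dysplasia 1 only. Among the same arrays, Il18, Asprv1, Dnase1l2 and Cdsn are low in dysplasia 2 and 3 only. These 2 statements do not cover the hyperplasia and tumor arrays. Cd3g is highest in all 3 dysplasia arrays.

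Against hyperplasia, dysplasia had no called gene (0% higher and 0% lower with limma, 1112 genes at an unadjusted p under 0.05). Without dysplasia 1, 11 genes were called against hyperplasia, 2 higher (0.00817%) and 9 lower (0.0368%). The rises were Trdv4 at 2.23 and Wfdc18 at 3.45, and the falls included Dnase1l2 at -3.17, Lce1c at -3.32 and Cdsn at -2.03, all with an adjusted p of 0.0439 or less. Trdv4 and Wfdc18 were also the 2 genes called lower in tumor than in dysplasia 2 and 3 (0.00817%, none higher, 0%), at -3.53 and -4.47. Wfdc18 averaged 6.66 in normal, 7.53 in hyperplasia, 10.08 in dysplasia and 6.51 in tumor. Dysplasia 2 and 3 share a preparation day, so these values rest on 2 arrays of the same day.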

How the data were processed

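Values were the deposited log2 signals of Affymetrix Mouse Gene ST arrays, which the authors had quantile-normalized and summarised by RMA over probe sets named by Entrez gene; software versions and the genome build are not given in the sources used here. Of 24479 probe sets, 23281 had 1 gene symbol and 1198 none; 2 symbols with 2 probe sets kept the brighter, leaving 24477 genes. Symbols of 23156 were found in the RefSeq gene table (GRCm38.p6). Group means over all 12 arrays were fitted with limma 3.58.1 in R 4.3.3 (8 residual and 4.22 prior degrees of freedom, prior SD 0.296), with Benjamini-Hochberg adjustment over all genes at 0.05. The fit was tested on simulated data. Each SE is the moderated SE of the difference. An exact permutation test of 3 against 3 cannot go below a two-sided p of 0.1 and was not used. Samples were grouped by title. Each array is taken as 1 mouse, so p-values measure the spread between mice.

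Named genes were the 12 largest called rises and falls with no overlap, up to 4 called members per list (or the 2 largest differences where none was called), 10 genes driven by dysplasia 1 in each direction and list markers; other genes were named after their values were seen. The members and gene lists were chosen with earlier results of these data known. RNA integrity and preparation day came from the supplementary sample table. Replicate numbers did not pair the samples (correlations of deviations 0.05, -0.03 and 0.05). Motif counts, counts and figures were made in Python 3.11.15 with pandas 2.3.3 and matplotlib 3.10.9. Alternatives were other normalization, filters, weights, covariates, blocks, tests and left-out arrays.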

Additional observations from a re-analysis of the deposited data

Results flagged for a closer look

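Cd3g, a CD3 chain of the T cell receptor complex, was the only gene called with all arrays when dysplasia was tested against hyperplasia or tumor. Tumor minus dysplasia was -2.76 (limma adjusted p = 0.0456). Hyperplasia and tumor were not tested against each other. Cd3g was above every normal and every tumor array in 3 of 3 dysplasia arrays. Groups of 3 are too small for a test of single outlying arrays.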

How the results depend on the processing

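Calls of genes higher and lower in dysplasia than in normal epithelium (64 and 123) were 30 and 81 in a fit of the 6 arrays only, 38 and 60 with the RNA integrity number as a covariate, and 20 and 69 without normal 1 and dysplasia 1 together. The rises were 101 with the 30% dimmest genes left out and 98 with an intensity trend. With the replicate number as a block, 40 genes were higher and 92 lower; the numbers do not pair the mice. The methods' t-test gave 1000 and 1158 genes at an unadjusted p under 0.05 and 0 and 0 after Benjamini-Hochberg. With 1 array left out, the calls ran from 6 to 75 higher and from 11 to 198 lower. Genes over 1 in difference of means ran from 495 to 585 higher and from 555 to 753 lower with 1 array left out. Genes driven higher by dysplasia 1 numbered 26 with a limit of 0.25, 93 with 0.75 and 32 without the dimmest genes; those driven lower numbered 1, 21 and 3, and 4 after quantile normalization again. They were 48 to 55 and 6 to 8 without 1 normal array. Calls against hyperplasia rose from 0 to 11, and those between tumor and dysplasia from 1 to 2, without dysplasia 1. The causes of these shifts were not tested. Of 2006 combinations of a named gene and an alternative, 1618 kept their side of the threshold, 354 lost a call and 34 gained one. Only 53 of the 119 named genes were called, so all 354 losses fell on these genes. The 1618 include genes that were not called in either fit. No called gene changed sign, and 17 combinations turned the sign of a gene that was not called. Quantile normalization again, array weights and the preparation day as a random block kept both counts of calls within 1.5 times. The number of arrays and the signal over background limit precision.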
